A study of Mus musculus with 27 samples.

Results

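Phgdh, Psat1 and Psph, the 3 enzymes that make serine from 3-phosphoglycerate, were followed through the RNA-seq, bisulfite and ChIP-seq data of a mouse B-cell lymphoma model with SHMT2 or an empty vector. They were chosen by their place in the pathway and not by their values. They are 3 of the 23382 gene symbols in the expression tables, and all 3 passed the filter of 1 TPM on average, which 11117 genes did (TPM is a transcript abundance scaled by transcript length and library total).

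Both groups carried the VavPBcl2 transgene, in which the Vav promoter drives Bcl2, an inhibitor of apoptosis, throughout the blood lineages. Stem cells of the blood were taken from E13.5 fetal liver, infected with MSCV-SHMT2, a retroviral vector for SHMT2, or with the empty vector, and given to irradiated wild type mice. B220+ cells, B cells by their surface marker, were isolated from the spleens of the resulting tumours. The labels describe no step that parts donor cells from B cells of the irradiated host, and the ages of the recipients are not stated. For ERRBS (enhanced reduced representation bisulfite sequencing, which reads methylation at CpG-rich DNA) the labels give the model, the vector and the B220+ cells only. The libraries with SHMT2 and with vector numbered 3 and 3 for RNA-seq, 3 and 3 for ERRBS, 3 and 2 for H3K4me3 and 2 and 2 for H3K4me1.

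Serine can be taken up or made from a glycolytic intermediate. Phgdh oxidises 3-phosphoglycerate and so diverts it from glycolysis, Psat1 transfers an amino group from glutamate to the product and releases 2-oxoglutarate, and Psph removes the phosphate to leave serine. SHMT2, the mitochondrial serine hydroxymethyltransferase, then splits serine into glycine and a folate-bound 1-carbon unit, so it acts directly downstream of these enzymes. In proliferating lymphocytes the pathway is known as a source of serine for nucleotide synthesis, and ATF4, MYC and NRF2 are known to raise its transcription in several cell types.

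All 3 genes lie on the minus strand of mm10 (GRCm38), so each is transcribed toward lower coordinates, and the annotated start below is the higher end of the span. Phgdh spans chr3:98313171-98339969, Psat1 chr19:15905123-15925059 and Psph chr5:129765558-129787443. The annotation used gives gene spans, so exons and introns are not named here. The RefSeq promoters of GRCm38.p6, 250 bases before to 50 bases after each start, are shown because the methylation calls and the H3K4me3 peaks described further on fall on them. Phgdh has 1 listed start, at the end of its span. Psat1 has 2, at 15925059, the end of its span, and at 15924622. The only listed start of Psph, at 129787253, lies inside its span, which ends at 129787443. Capitals mark each CG with at least 10 bisulfite calls in all 6 ERRBS libraries. The windows are Phgdh at chr3:98339920-98340219, Psat1 start 1 at chr19:15925010-15925309, Psat1 start 2 at chr19:15924573-15924872 and Psph at chr5:129787204-129787503, each read 5′ to 3′ on the minus strand.
Phgdh: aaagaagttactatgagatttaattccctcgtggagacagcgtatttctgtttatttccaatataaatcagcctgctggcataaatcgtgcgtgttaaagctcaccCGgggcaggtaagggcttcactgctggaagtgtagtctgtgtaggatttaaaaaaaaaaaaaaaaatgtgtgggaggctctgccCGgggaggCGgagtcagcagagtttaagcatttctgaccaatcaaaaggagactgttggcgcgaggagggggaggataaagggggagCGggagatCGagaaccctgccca
Psat1 start 1: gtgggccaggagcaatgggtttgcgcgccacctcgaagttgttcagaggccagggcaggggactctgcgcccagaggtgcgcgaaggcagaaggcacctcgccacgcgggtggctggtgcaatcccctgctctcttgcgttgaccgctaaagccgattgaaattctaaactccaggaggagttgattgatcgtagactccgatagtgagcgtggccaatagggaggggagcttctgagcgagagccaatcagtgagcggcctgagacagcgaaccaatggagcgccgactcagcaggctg
Psat1 start 2: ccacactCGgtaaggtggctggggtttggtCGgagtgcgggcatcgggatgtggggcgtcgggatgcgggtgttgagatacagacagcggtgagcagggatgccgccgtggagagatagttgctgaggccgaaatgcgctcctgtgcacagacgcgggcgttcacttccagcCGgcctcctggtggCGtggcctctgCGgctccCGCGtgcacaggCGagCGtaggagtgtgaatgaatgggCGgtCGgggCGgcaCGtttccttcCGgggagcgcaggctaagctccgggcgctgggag
Psph: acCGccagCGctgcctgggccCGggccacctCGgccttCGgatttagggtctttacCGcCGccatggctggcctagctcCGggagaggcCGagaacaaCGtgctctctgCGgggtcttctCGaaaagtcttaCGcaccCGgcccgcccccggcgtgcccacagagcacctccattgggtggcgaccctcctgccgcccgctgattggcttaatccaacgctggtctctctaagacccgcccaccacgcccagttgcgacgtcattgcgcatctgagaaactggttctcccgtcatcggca

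Each of these windows held more CG pairs than the median promoter of the RefSeq table, which had 7 over 32851 windows of this length. The Phgdh window held 11, of which 5 were measured. Psat1 start 1 held 20, none of them measured, and Psat1 start 2 held 30, of which 14 were measured. The Psph window held 28, of which 14 were measured. All 45 measured cytosines in these windows fell on a CG of the sequence, which checks that the methylation files and the promoters share a build. Motif letters were searched on both strands, with N standing for any base. The ATF4 with C/EBP letters TGATGNAA, present in 3.97% of all promoters, and the E-box letters CACGTG of MYC, present in 7.15%, matched none of the 4 windows. The antioxidant response element letters TGACNNNGC, which NRF2 can bind, matched once in the Phgdh window and once in the Psph window, against 12.4% of all promoters. The GC box letters GGGCGG matched 2 times in Psat1 start 2 and 3 times in the Psph window, against 35.7% of all promoters. No matches overlapped. These matches describe letters in 300 bases and not binding.

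The RNA-seq tables hold no counts, so depth cannot be given for them. Between 1330340 and 1424115 cytosines were listed per ERRBS library, with 63.0 to 71.6 calls each on average. The H3K4me3 lists held 34458 to 38249 peaks in SHMT2 libraries and 33313 to 33806 in vector libraries, and the H3K4me1 lists 48993 to 52056 in SHMT2 and 33119 to 37274 in vector libraries. Shmt2 itself was at 244, 345 and 259 TPM in SHMT2 libraries, against 174, 223 and 157 TPM in vector libraries. Its groups did not overlap, at a log2 fold change of 0.61 (SE 0.19; adjusted p = 0.216 by limma). The labels do not tie the libraries to separate animals. The p-values therefore cover only the spread among these samples, part of which may be technical. In bulk libraries, fewer cells of a type and less RNA per cell cannot be told apart.

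All 3 enzymes had a higher mean in SHMT2 than in vector libraries, by 1.39 to 1.75 times, and Psat1 and Psph separated the groups fully. None passed limma's threshold of an adjusted p under 0.05, which no gene passed: 0 of 11117 genes (0.0%) were called. At an unadjusted limma p under 0.05, 2 of the 3 enzymes were higher in SHMT2, against 11.3% of all genes tested (1258 genes; 600 genes, or 5.4%, were lower). The groups did not overlap, with SHMT2 higher, for 2 of the 3, against 16.9% of all genes.

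Phgdh, the first enzyme of the pathway, was measured at 23.3, 20.7 and 18.01 TPM in SHMT2 libraries, against 19.1, 14.7 and 10.9 TPM in vector libraries. The groups overlapped, since vector replicate 1 lay above SHMT2 replicate 3, and the vector libraries were the more scattered. The mean was 20.7 ± 2.66 TPM in SHMT2 and 14.9 ± 4.11 TPM in vector libraries (SD, n = 3 each). The log2 fold change, on the scale of log2(TPM + 1), was 0.47 (SE 0.21, limma p = 0.0641, adjusted p = 0.328), and the two-sided exact permutation p was 0.2, where 0.1 is the smallest that 3 against 3 libraries allow. RefSeq lists a pseudogene, Phgdh-ps1, at chr7:83710887-83711911. Its own level is not analysed here, and how reads shared with Phgdh were assigned is not known, so part of the Phgdh value is uncertain.

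Psat1, the aminotransferase of the middle step, was measured at 15.5, 16.1 and 14.2 TPM in SHMT2 libraries, against 11.96, 7.23 and 6.97 TPM in vector libraries. Every SHMT2 library lay above every vector library, and vector replicate 1 stood closer to the SHMT2 libraries than to replicates 2 and 3 of its own group. The mean was 15.3 ± 0.977 TPM in SHMT2 and 8.72 ± 2.80 TPM in vector libraries (SD, n = 3 each), a ratio of 1.75. Its log2 fold change of 0.78 (SE 0.20, limma p = 0.00849, adjusted p = 0.205) was the largest of the 3 enzymes, and the exact permutation p was 0.1.

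Psph, the phosphatase of the last step, was measured at 17.3, 16.0 and 16.4 TPM in SHMT2 libraries, against 11.3, 10.2 and 11.4 TPM in vector libraries. The groups were far apart for their spread, and no library stood out within its group. The mean was 16.6 ± 0.672 TPM in SHMT2 and 10.98 ± 0.678 TPM in vector libraries (SD, n = 3 each), a ratio of 1.51. The log2 fold change was 0.55 (SE 0.09, limma p = 7.9e-04, adjusted p = 0.204) and the exact permutation p 0.1. By unadjusted limma p, Psph held place 23 of the 11117 genes, Psat1 place 458 and Phgdh place 2174.

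**Figure D1:**
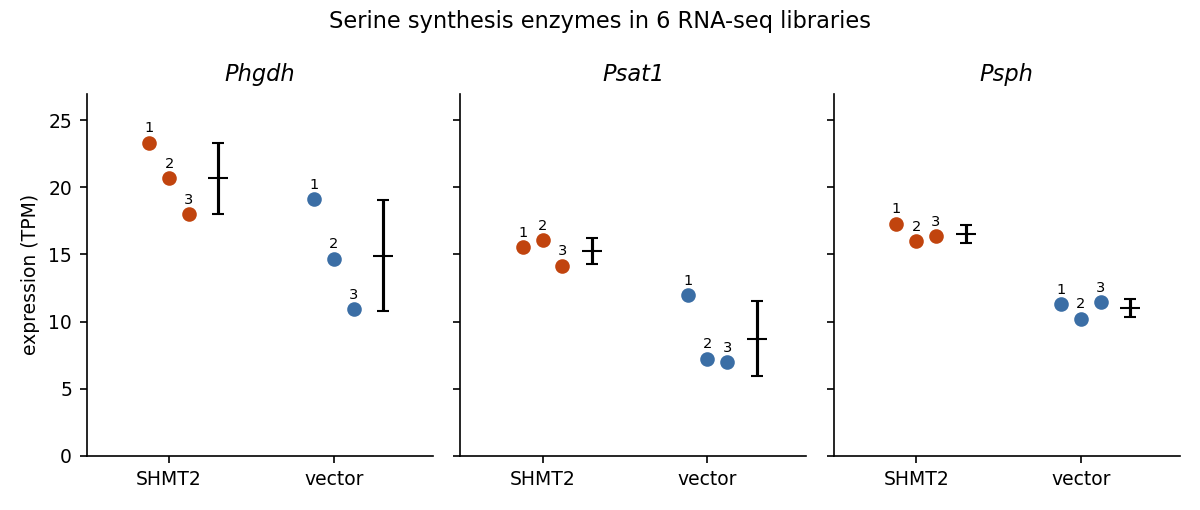
TPM of Phgdh, Psat1 and Psph in each RNA-seq library, with SHMT2 on the left and vector on the right of each panel. Points are libraries with their replicate number, and the black bars give the mean and SD of 3 libraries. The groups overlap for Phgdh and are apart for Psat1 and Psph, and the vector libraries of Phgdh and Psat1 spread from 10.9 to 19.1 TPM and from 6.97 to 11.96 TPM.

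The vector libraries also differed in markers of other cell types. Markers of erythroid cells (12 genes) summed to 175 to 324 TPM in SHMT2 libraries, and to 180, 6457 and 1335 TPM in vector replicates 1, 2 and 3. Macrophage markers (12 genes) summed to 270 to 356 TPM in SHMT2 libraries, and to 209, 1141 and 992 TPM in the same vector replicates. Neutrophil markers (8 genes) summed to 247 to 1274 TPM in SHMT2 libraries, and to 200, 3773 and 2531 TPM in the vector replicates. Vector replicates 2 and 3 had the highest sums of all 3 lists. B-cell markers (11 genes found of 12) summed to 9159 to 9432 TPM in SHMT2 libraries, and to 9360, 7428 and 6760 TPM in vector replicates 1, 2 and 3. Markers of dividing cells summed to 727 to 831 TPM in SHMT2 libraries, and to 718, 1430 and 451 TPM in the vector replicates. T-cell markers summed to 19.97 to 52.6 TPM in SHMT2 and 17.5 to 37.0 TPM in vector libraries, natural killer markers to 92.6 to 202 and 91.7 to 211 TPM, and plasma cell markers to 2582 to 4578 and 2104 to 3489 TPM. No marker found in the tables was at 0 in any library, and Ighm, Trbc1 and Trbc2 of these lists were not analysed here. Phgdh and Psat1 were lowest in vector replicates 2 and 3, the libraries with the lowest B-cell sums, whereas Psph was as high in vector replicate 3 as in replicate 1.

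Of the 3 enzymes, the Psph value moved least when libraries were left out. Without vector replicates 2 and 3, the log2 fold change of Psph was 0.51 (limma adjusted p = 0.184, against a lone vector library assumed to vary like the SHMT2 libraries), that of Psat1 was 0.33 (adjusted p = 0.251) and that of Phgdh 0.10 (adjusted p = 0.762). With the erythroid and macrophage level as a covariate in limma, the values were 0.51 for Psph (adjusted p = 0.245), 0.46 for Psat1 (adjusted p = 0.279) and 0.27 for Phgdh (adjusted p = 0.627). Without vector replicate 1, the one library of its group with few erythroid and myeloid markers, Psat1 was called at 1.00 (limma adjusted p = 0.0209) and Psph at 0.57 (adjusted p = 0.0407). Phgdh was not called there, at 0.66 (adjusted p = 0.0750). In that fit 431 of 11136 genes (3.87%) were called higher in SHMT2. The part of cell makeup in the differences of the 3 enzymes was not tested, and these fits cannot give it. The covariate was highest in vector replicates 2 and 3, so it goes partly with the group. Leaving out those libraries keeps a lone vector library.

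**Figure D2:**
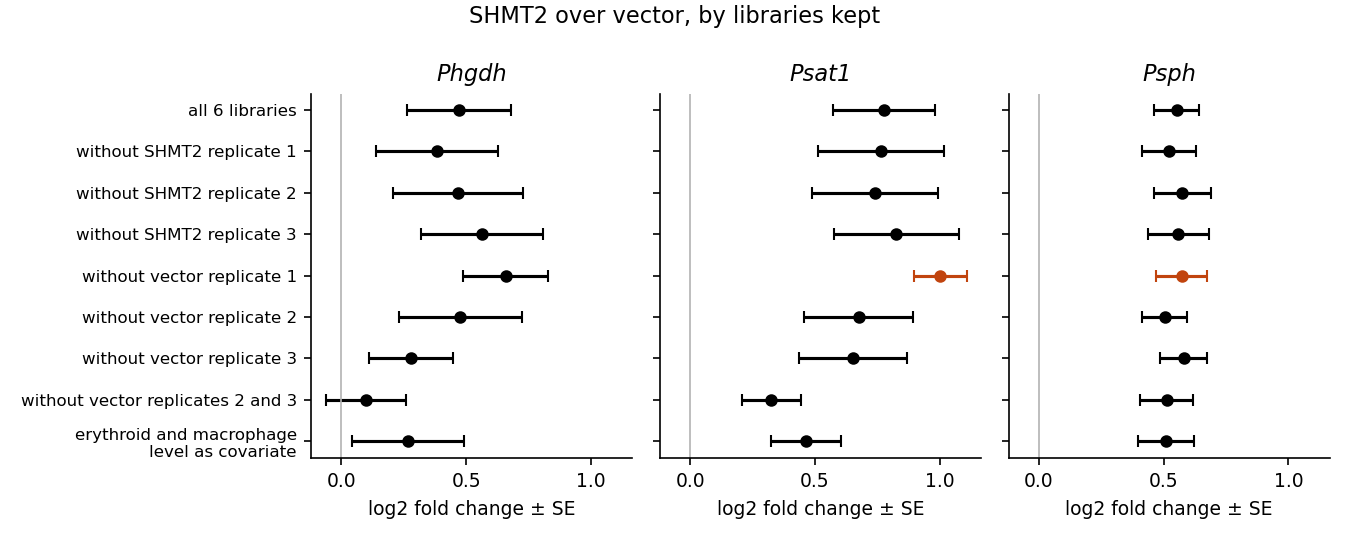
Log2 fold change of log2(TPM + 1), SHMT2 over vector, for each enzyme with all 6 libraries, with single libraries left out, with vector replicates 2 and 3 left out, and with the erythroid and macrophage level as a covariate. Points are limma estimates with their SE, and red points have an adjusted p under 0.05. Psph stays between 0.50 and 0.58, whereas Phgdh runs from 0.10 to 0.66 and Psat1 from 0.33 to 1.00.

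TPM are scaled by length, so the enzymes were set in order. The order carries the limit that read assignment is not known and that part of the Phgdh value is uncertain. Phgdh was above Psat1 in 6 of 6 libraries and above Psph in 5 of 6, all but vector replicate 3. Psat1 and Psph had no fixed order, with Psat1 above Psph in 2 of 6 libraries, SHMT2 replicate 2 and vector replicate 1. Averaged over the 6 libraries, the levels were 17.8 TPM for Phgdh, 13.8 TPM for Psph and 11.99 TPM for Psat1, near or under the middle of the genes tested (percentiles 48.6, 42.4 and 39.0).

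Whether the enzymes differed by unlike amounts was tested on the 3 log2 ratios between them. The Phgdh to Psat1 ratio was 0.56, 0.35 and 0.33 in SHMT2 libraries, against 0.64, 0.93 and 0.58 in vector libraries, without overlap. The difference was -0.31 (exact permutation p = 0.1, adjusted over the 3 ratios 0.3), with relatively more Psat1 in the SHMT2 libraries and with the smallest raw p that 3 against 3 libraries allow. The Psat1 to Psph ratio differed by 0.22 (exact permutation p = 0.4, adjusted 0.6) and the Phgdh to Psph ratio by -0.08 (exact permutation p = 0.8, adjusted 0.8), both with overlapping groups. Leaving out vector replicate 3 gave a Psat1 to Psph difference of 0.07 and leaving out vector replicate 1 one of 0.43, while the Phgdh to Psat1 difference was -0.20 with vector replicate 2 left out.

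Psph shares its promoter region with Cct6a, a subunit of the CCT chaperonin, which is transcribed the other way and whose span of chr5:129787356-129846443 overlaps that of Psph by 88 bases. Cct6a was at 71.0, 62.7 and 67.4 TPM in SHMT2 libraries, against 50.1, 46.1 and 42.7 TPM in vector libraries. Its groups were also fully apart, with a log2 fold change of 0.53 (SE 0.09, limma adjusted p = 0.204). The library kit keeps strand, per the labels, but whether strand was used in the counting is not given, so reads in the 88 shared bases could count for either gene.

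Likeness of pattern was measured as the root mean square difference of centred log2(TPM + 1) over the 6 libraries, among 11116 other genes. The nearest genes to Psph were Mrps16, Pdlim2, Cfdp1, Tomm7 and Bzw2, at differences of 0.042 to 0.049, and Cct6a held place 64 at 0.087. The nearest to Psat1 were Lxn, Psmb10, Gm13315, Hspa2 and 2700094K13Rik, at 0.054 to 0.090. The nearest to Phgdh were Slc2a4rg-ps, Zfp446, Prss36, Dmwd and Fuz, at 0.052 to 0.085. The enzymes were not among each other's nearest genes. Psat1 held place 415 in the order around Phgdh, at 0.20, and Psph held place 1244 there, at 0.25. Around Psat1, Phgdh held place 174 and Psph place 472. Around Psph, Phgdh held place 2941 and Psat1 place 2968.

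The genes around the pathway were described by 7 lists with 74 members found, of which 57 were tested. None was called by limma on all 6 libraries. At an unadjusted p under 0.05, 4 were higher in SHMT2 and 3 lower (11.3% and 5.4% of all genes), and 9 lay higher and 2 lower without overlap between groups (16.9% and 8.26% of all genes). Shmt2, the gene that defines the groups, is among the 4 and among the 9. The median log2 fold change of all genes tested was 0.02, and 53.2% of them were above 0.

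On the supply side, the enzymes between glyceraldehyde 3-phosphate and phosphoenolpyruvate could be read only in part. Gapdh was at 1.80 to 4.70 TPM over the 6 libraries and Eno1 was listed at 0 in all 6, although glycolytic cells use both, so low values of this list were not read as low expression. Of its 8 genes 5 were tested, none with p under 0.05, at a median log2 fold change of 0.15. This median had no stable sign, at -0.07 without vector replicate 2, -0.16 without vector replicates 2 and 3, -0.07 with the erythroid and macrophage covariate and -0.11 over genes of at least 5 TPM. Eno3, the muscle-type enolase, was at 3.03, 2.42 and 2.57 TPM in SHMT2 libraries, against 2.69, 4.55 and 3.82 TPM in vector libraries. Its groups overlapped (log2 fold change -0.34, limma adjusted p = 0.399). Pgk1, which makes 3-phosphoglycerate, was at 7.79, 6.81 and 8.32 TPM in SHMT2 libraries, against 8.62, 3.53 and 3.78 TPM in vector libraries. Its low libraries were vector replicates 2 and 3, as for Psat1, and the groups overlapped. Bpgm, which makes the 2,3-bisphosphoglycerate of red cells, was at 5.64 to 7.78 TPM in SHMT2 libraries and reached 28.0 TPM in vector replicate 2, the library with the most erythroid RNA.

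Over 7 tested genes of 9, the median log2 fold change of the partners of Psat1 in glutamate and 2-oxoglutarate metabolism was 0.21, with 4 higher in SHMT2 without overlap (16.9% of all genes). D2hgdh, which oxidises 2-hydroxyglutarate to 2-oxoglutarate, was at 46.7, 41.2 and 43.4 TPM in SHMT2 libraries, against 33.8, 37.5 and 29.3 TPM in vector libraries. Its groups were apart at a log2 fold change of 0.38 (SE 0.11, limma adjusted p = 0.214). Got2, the mitochondrial aspartate aminotransferase, followed at 0.31 (limma adjusted p = 0.289) and Glud1, glutamate dehydrogenase, at 0.19 (limma adjusted p = 0.305).

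Genes that use serine and glycine had a median of 0.30 over 6 tested of 10, and of 0.0026 with the genes of low values included. Both medians include Shmt2, the gene that defines the groups. Besides Shmt2, the cytosolic isoenzyme Shmt1 was at 7.49, 7.36 and 7.71 TPM in SHMT2 libraries, against 6.44, 3.26 and 1.96 TPM in vector libraries. The groups did not overlap, the SHMT2 libraries were tight, and vector replicate 1 again stood nearest to them (log2 fold change 0.91, SE 0.33, limma adjusted p = 0.258). Dld, the lipoamide dehydrogenase of the glycine cleavage system, had a log2 fold change of 0.20 with overlapping groups. Gldc of the same system, and Sds and Cbs, which break down serine or pass it toward cysteine, were listed at or near 0 TPM. As for Eno1, these values were not read as low expression.

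Genes that place serine in membrane lipids had a median of -0.08 over 8 tested of 13, which was 0.0019 without vector replicate 3 and 0.03 without vector replicates 2 and 3. Serinc5, a membrane protein of the serine incorporator family, was at 38.0, 51.7 and 50.4 TPM in SHMT2 libraries, against 83.0, 64.3 and 97.9 TPM in vector libraries. It was lower in every SHMT2 library than in any vector library (log2 fold change -0.79, SE 0.19, limma adjusted p = 0.204). Serinc3 of the same family had a log2 fold change of -0.58 (limma adjusted p = 0.269) and Sptlc1, a subunit of serine palmitoyltransferase, one of 0.18.

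Serine transporters gave a median of -0.07 over 8 tested of 9, with none at p under 0.05. Slc1a4, a neutral amino acid exchanger that carries serine, had a log2 fold change of 0.52 and overlapping groups (limma adjusted p = 0.344). Slc38a5, an amino acid transporter, was at 19.4 to 24.3 TPM in SHMT2 libraries, and at 14.2, 809 and 173 TPM in vector replicates 1, 2 and 3. Its high libraries were those with the high erythroid sums. Sfxn3, a mitochondrial carrier of the sideroflexin family, had a log2 fold change of -0.18 and overlapping groups.

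The list of ATF4 and its amino acid response, the program known to drive serine synthesis genes, had a median of -0.11 over 16 tested of 19. The median was 0.05 without vector replicate 2, 0.14 without vector replicates 2 and 3, and 0.10 with the erythroid and macrophage covariate, so its sign rested on these libraries. Atf4 itself was at 148, 129 and 129 TPM in SHMT2 libraries, against 125, 145 and 133 TPM in vector libraries, with overlapping groups, and the asparagine synthetase gene Asns at 15.1 to 18.3 TPM in SHMT2 libraries, against 13.7, 37.5 and 13.2 TPM in vector libraries. Ddit4, a stress-induced inhibitor of mTORC1, was at 10.8, 12.7 and 13.8 TPM in SHMT2 libraries, against 14.9, 43.3 and 68.9 TPM in vector libraries (log2 fold change -1.45, SE 0.52, limma adjusted p = 0.258). Cebpb, a transcription factor of the stress and myeloid programs, had a log2 fold change of -0.47 and Sars, the cytosolic seryl-tRNA synthetase, one of 0.16, both with overlapping groups. The 7 tested other regulators had a median of 0.05, which was -0.06 without vector replicate 3 and -0.01 without vector replicates 2 and 3. Among them, Myc was at 46.7 to 68.3 TPM in SHMT2 libraries and at 46.1, 146 and 38.6 TPM in vector libraries. Pkm, pyruvate kinase, whose activity is known to affect how much 3-phosphoglycerate goes to serine, was at 122, 115 and 123 TPM in SHMT2 libraries, against 121, 46.3 and 64.3 TPM in vector libraries. Kdm4c, a histone H3K9 demethylase, had a log2 fold change of 0.16 with groups apart, and Nfe2l2, the gene of NRF2, one of -0.17 with overlapping groups.

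Without vector replicate 1, 8 genes of these lists were called. They were Pkm, Shmt1, Pgk1 and Got2, higher in SHMT2, and Ddit4, Serinc3, Slc38a5 and Cebpb, lower in SHMT2, in a fit that called 7.63% of all genes in either direction. For each of these 8, vector replicates 2 and 3 lay further from the SHMT2 mean than vector replicate 1. Picking genes called only without that library favours this pattern, so it adds nothing to the calls. The part of cell makeup was not tested.

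**Figure D3:**
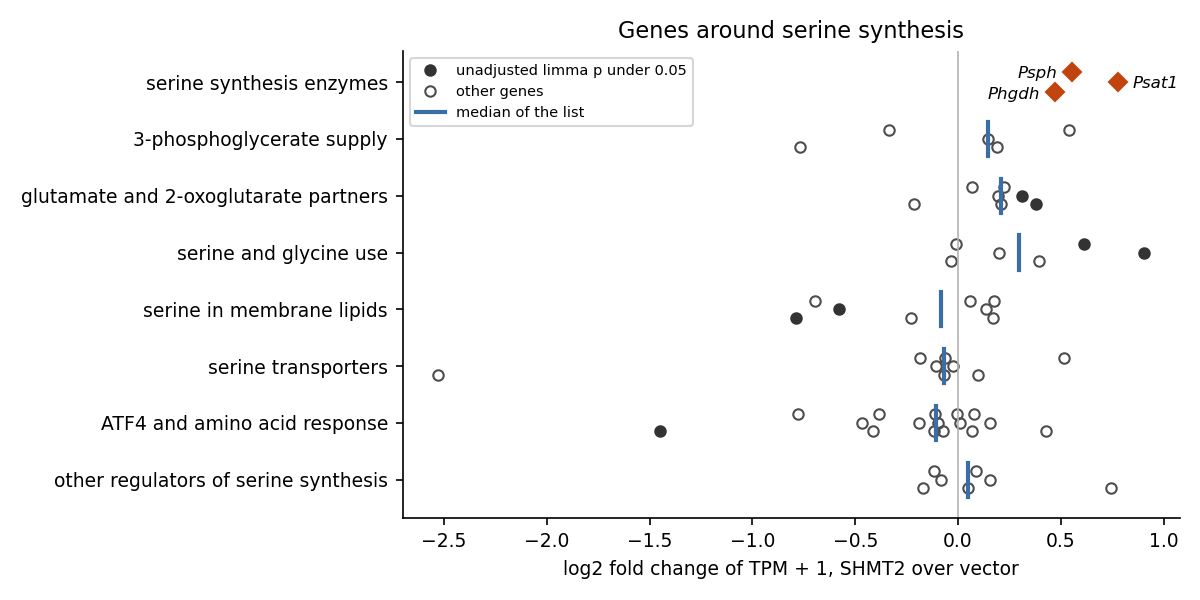
Log2 fold change of log2(TPM + 1), SHMT2 over vector, for the 3 enzymes (red diamonds) and for the tested genes of 7 lists (circles, 1 gene each). Filled circles have an unadjusted limma p under 0.05 and blue bars are list medians. The enzymes sit at 0.47, 0.55 and 0.78, while the list medians lie between -0.11 and 0.30, with signs that turn in 4 of the 7 lists when vector libraries are left out.

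DNA methylation at the starts of all 3 genes was under 1% in every library. Over the cytosines within 1 kb of each start, the Phgdh start (29 cytosines) was methylated at 0.312, 0.421 and 0.289% in SHMT2 libraries, against 0.448, 0.468 and 0.318% in vector libraries. The groups overlapped, the difference was -0.071 percentage points (exact permutation p = 0.2), and each value rested on 2779 to 3349 calls. The Psph start (33 cytosines) was at 0.242, 0 and 0.0885% in SHMT2 libraries, against 0.600, 0.133 and 0.240% in vector libraries, a difference of -0.21 points with overlapping groups (exact permutation p = 0.3), and of -0.076 points without vector replicate 1. The 0 came from 1832 calls. Its floor, taken as 3 calls over that number, was 0.164%, and its Wilson 95% upper bound was 0.209%. The Psat1 start (33 cytosines) was at 0.860, 0.154 and 0% in SHMT2 libraries, against 0.0781, 0.423 and 0.0670% in vector libraries, a difference of 0.15 points (exact permutation p = 0.7). There the SHMT2 libraries held both the highest and the lowest value. The 0 came from 3299 calls, with a floor taken in the same way of 0.0909% and a Wilson 95% upper bound of 0.116%. The highest value had a Wilson 95% interval of 0.588 to 1.26%. These bounds and floors cover counting error only. They treat each call as independent, although neighbouring cytosines can share a read.

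Such levels were common at marked starts. Of 11416 covered gene ends with H3K4me3 in any library, 84.1% were under 5%, and the 3 starts held percentiles 50.6 (Phgdh), 34.5 (Psat1) and 26.9 (Psph) among them. None of the 3 separated the groups, against 3.4% of the ends under 5% that were higher in SHMT2 and 5.64% that were lower. Of 5959 gene ends with levels between 5 and 95%, a model of methylated and total calls called 0 (0.0%) at an adjusted p under 0.05 and at least 10 points, and 166 had an unadjusted p under 0.05. In the printed promoters the highest group level at any single cytosine was 1.79% for Phgdh, 1.49% for Psat1 start 2 and 1.80% for Psph.

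Away from H3K4me3 peaks the few measured cytosines were nearly fully methylated. A group of 6 in the Phgdh body, at chr3:98322689-98322769, 17.2 kb into the gene, was methylated at 96.1, 94.7 and 97.2% in SHMT2 libraries, against 94.4, 94.3 and 91.9% in vector libraries. The SHMT2 libraries were all above the vector libraries, by 2.47 points on average (exact permutation p = 0.1, adjusted over the 10 cytosine groups of the 3 genes 0.333). A group of 6 in the Psat1 body, at chr19:15917092-15917216, was lower in SHMT2, at 95.02, 94.1 and 95.5% in SHMT2 libraries, against 97.2, 95.7 and 96.0% in vector libraries, a difference of -1.43 points (exact permutation p = 0.1, adjusted 0.333). Of the other groups, 3 cytosines of the Psat1 body at chr19:15910931-15910963 averaged 95.7% in SHMT2 and 92.1% in vector libraries, and 2 of the Phgdh body at chr3:98334636-98334731 averaged 98.8% and 96.9%, both with overlapping groups (exact permutation p = 0.3 each). A single cytosine past the 3′ end of Psph, at base 129764400, averaged 99.3% in SHMT2 and 96.6% in vector libraries, without overlap (exact permutation p = 0.1, adjusted 0.333). In Psph a group of 4 at chr5:129781300-129781384 averaged 94.0% in SHMT2 and 92.9% in vector libraries, with overlapping groups. How often cytosine groups of such high levels elsewhere in the genome separate SHMT2 from vector libraries was not counted. The 3′ ends of the genes had under 3 covered cytosines within 1 kb.

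Psph had a second unmethylated stretch, 8.24 kb inside the gene. Its 23 measured cytosines at chr5:129778969-129779439 were methylated at 0.151, 0.413 and 0.273% in SHMT2 libraries, against 0.298, 0.302 and 0.433% in vector libraries (exact permutation p = 0.4). It lay under an H3K4me3 peak found in 5 of 5 libraries, at chr5:129778596-129779754, and under H3K4me1 in 4 of 4. No RefSeq promoter window and no gene other than Psph overlapped this region. The authors' fold enrichment of its top H3K4me3 peak was 27.7, 41.3 and 29.2 in SHMT2 libraries, against 23.0 and 43.6 in vector libraries. At the annotated start of Psph the same value was 47.6, 17.2 and 37.9 in SHMT2 libraries, against 38.9 and 23.3 in vector libraries. In SHMT2 replicate 5 and vector replicate 6 the inner peak was the stronger, and in the other 3 libraries the peak at the start was. Of 8174 protein-coding genes longer than 10 kb with H3K4me3 at an end in all 5 libraries, 18.9% had a further peak in all 5 more than 5 kb inside.

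**Figure D4:**
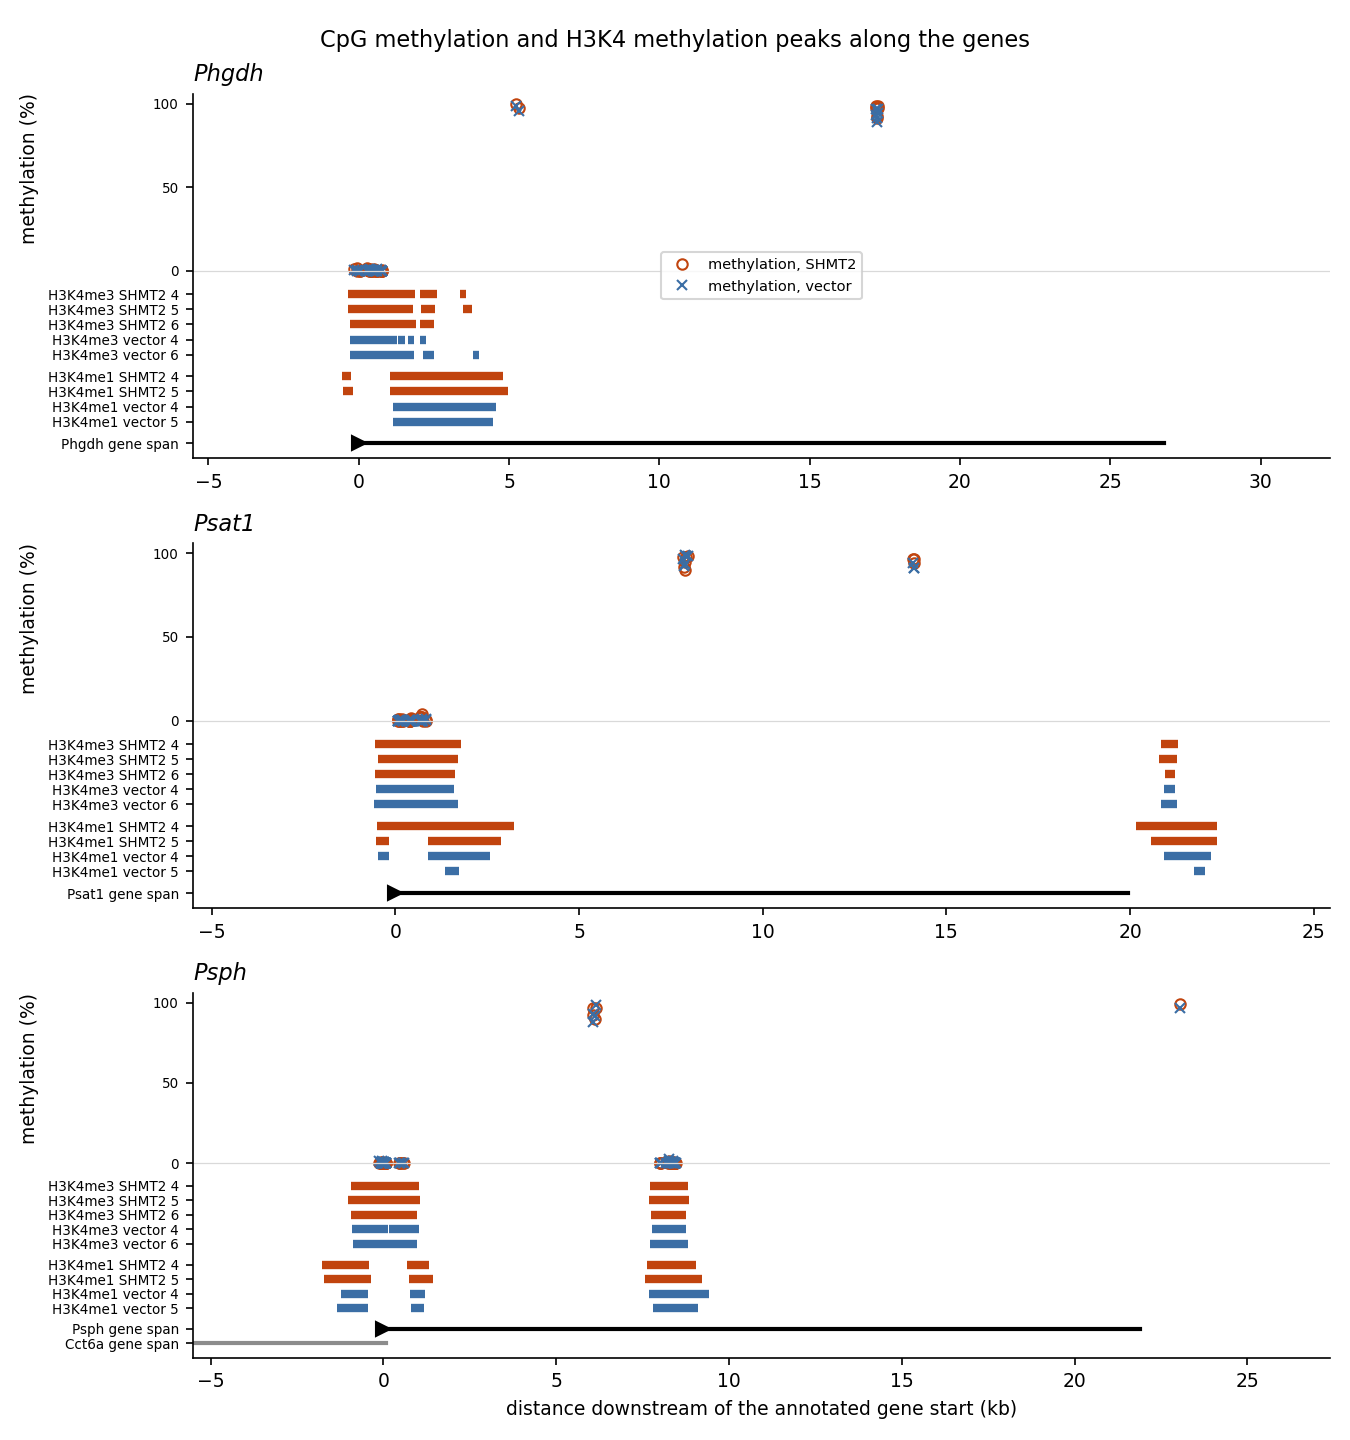
Methylation of single cytosines (percent, group means of 3 ERRBS libraries) above, and peaks of H3K4me3 and H3K4me1 by library below, along Phgdh, Psat1 and Psph, by distance from the annotated start in kb. Red is SHMT2 and blue is vector. Cytosines under H3K4me3 lie near 0% and those away from it above 85%, and Psph alone of the 3 shows a further H3K4me3 region with unmethylated cytosines inside the gene.

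H3K4me3, the mark of active starts, lay over the start of each enzyme gene in 5 of 5 libraries. The joint extent was chr3:98335957-98340324 at Phgdh, chr19:15923279-15925634 at Psat1, covering both listed starts, and chr5:129786387-129788468 across the shared start region of Psph and Cct6a. Psat1 had a further H3K4me3 peak 0.854 kb past its 3′ end, at chr19:15903757-15904269, also in 5 of 5 libraries, with the authors' fold enrichment at 11.01, 5.19 and 5.27 in SHMT2 libraries and 6.73 and 7.74 in vector libraries. The length under H3K4me3 peaks within 5 kb of the gene was 3027, 2903 and 2602 bp at Phgdh in SHMT2 libraries, against 2167 and 2744 bp in vector libraries. At Psat1 it was 2798, 2683 and 2455 bp in SHMT2 libraries, against 2400 and 2710 bp in vector libraries. Both genes had overlapping groups. At Psph it was 3064, 3241 and 2955 bp in SHMT2 libraries, against 2906 and 2947 bp in vector libraries, without overlap. SHMT2 was higher without overlap at 34.5% of all genes with a peak and lower at 0.666%. The lists differed as a whole, since the median gene had 201 bp more in SHMT2 libraries and 90.9% of genes had a difference above 0. The Psph difference of 160 bp was under that median, at percentile 41.7. The differences of 388.5 bp at Phgdh and 90.3 bp at Psat1 were at percentiles 75.3 and 25.9.

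H3K4me1 is a mark of enhancers and of the flanks of starts. Within 5 kb of all 3 genes it covered more bases in both SHMT2 libraries than in either vector library. This also held for 83.8% of all genes with a peak, while 0.187% had less in both. At Phgdh it covered 4033 and 4251 bp in SHMT2 libraries, against 3432 and 3338 bp in vector libraries. At Psat1 it covered 5950 and 4131 bp in SHMT2 libraries, against 3309 and 678 bp in vector libraries, and vector replicate 5 was far below the rest. At Psph it covered 3413 and 3708 bp in SHMT2 libraries, against 2939 and 2571 bp in vector libraries. Of these, 1365 and 1371 bp, against 782 and 879 bp, lay outside Psph and inside the Cct6a span, at chr5:129787794-129789220. Inside Psph, the region at chr5:129778031-129779871 overlapped between groups, at 1424 and 1651 bp against 1740 and 1310 bp. The region at chr5:129786022-129786760 had 624 and 686 bp in SHMT2 libraries, against 417 and 382 bp in vector libraries. Against a median gain of 1562 bp over all genes, the differences of 757 bp at Phgdh and 806 bp at Psph were at percentiles 23.4 and 25.2, and that of 3047 bp at Psat1 at 75.8. With vector replicate 5 left out the Psat1 difference was 1731.5 bp, and with vector replicate 4 left out 4362.5 bp, so its size rested on single libraries. Peaks with a −log10 q of at least 10 made up 10.6 and 5.01% of the SHMT2 lists, against 0.360 and 0.0211% of the vector lists. With such peaks alone no base was covered at Psat1 in either group, and the Phgdh difference was 3835 bp. No test was made on peak lengths, which move with how much was called in each library.

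**Figure D5:**
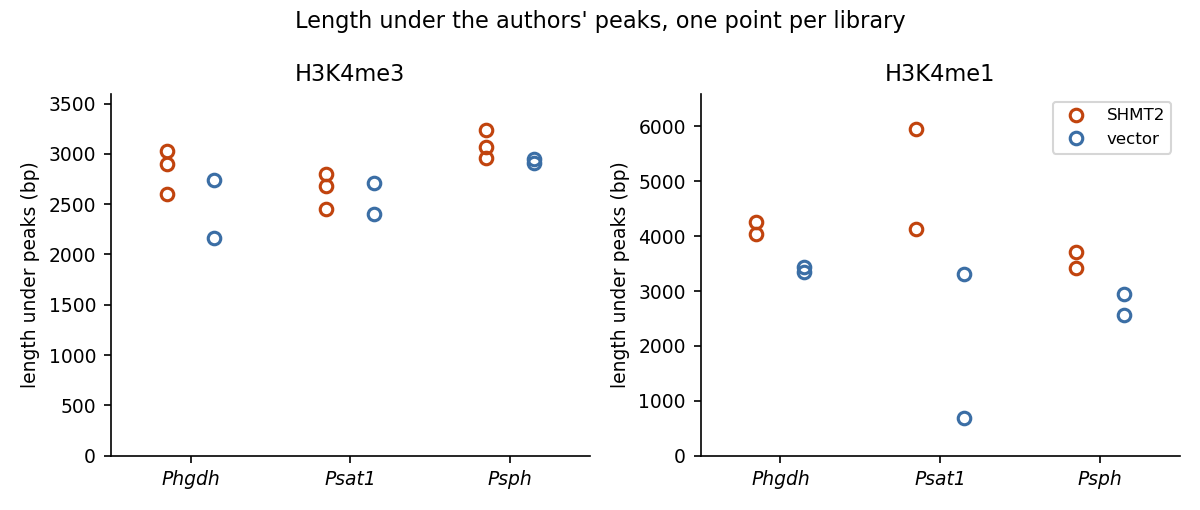
Length under the authors' peaks within 5 kb of each gene, in bp, for H3K4me3 (left) and H3K4me1 (right), with 1 point per library, SHMT2 in red on the left of each pair and vector in blue on the right. Both SHMT2 points lie above the vector points at every gene for H3K4me1, and only at Psph do all SHMT2 points do so for H3K4me3. There the lowest SHMT2 point is at 2955 bp and the highest vector point at 2947 bp.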

How the data were processed

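Expression tables deposited by the authors give TPM per gene symbol, 1 per library. The submitters' processing notes name STAR, BWA, MACS2, Bismark and Bowtie2 with mm10, and do not say which tool made the TPM. limma 3.58.1 in R 4.3.3 was fitted to log2(TPM + 1) of genes averaging at least 1 TPM (trend, no block, Benjamini-Hochberg over all genes, two-sided). The log2 scale understates changes of low genes. Single values were compared by two-sided exact permutation tests, written out in Python 3.11.15 and in R. Wilson intervals were computed with scipy 1.17.1.

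The deposited ERRBS tables give, per the file headers, coverage as a count of calls and the percent methylated per cytosine, with a lowest coverage of 10. Cytosines covered in all 6 libraries were summed over 1 kb on either side of a gene end. Peaks were deposited per library by the authors with a fold enrichment and a −log10 q-value, and the use of inputs in calling is not stated in the notes. The 6 input libraries were not analysed here. Promoters come from RefSeq (GRCm38.p6), and all 3 genes matched by symbol. For ERRBS SHMT2 replicates 2 and 3, whose transfection label reads SHMT3 and SHMT4, the titles were followed.

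The genes, lists and tests were chosen with earlier results of these data known. Named were the 3 enzymes and Shmt2, the 3 genes of each list with the smallest limma p, and the 5 genes most like each enzyme. Outside this rule, Cct6a and Phgdh-ps1 were named for their position or sequence, and other genes (Gapdh, Eno1, Gldc, Sds, Cbs, Atf4, Asns, Myc and the calls without vector replicate 1) after their values were seen. Scripts for many genes or gene ends were tested on simulated data. The simulated expression had a capped spread, equal in both groups, and no shifts shared among genes. It therefore does not show how the fit performs on the uneven vector libraries here. Alternatives were other pseudocounts, filters, normalizations, windows, coverage and peak thresholds, a replicate block, a cell-type covariate and leaving out libraries.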

Additional observations from a re-analysis of the deposited data

How the results depend on the processing

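Under 16 alternative fits each, the log2 fold changes of Phgdh, Psat1 and Psph stayed above 0. With single libraries left out they ranged from 0.28 to 0.66 for Phgdh, from 0.65 to 1.00 for Psat1 and from 0.50 to 0.58 for Psph, and Psat1 and Psph were called only without vector replicate 1. The number of all genes called ranged from 0 to 850 and of list genes from 0 to 8, both highest without vector replicate 1. It was 1 with the erythroid and macrophage covariate and 6 without vector replicates 2 and 3. The Phgdh to Psph ratio ranged from -0.30 to 0.09, turning above 0 without SHMT2 replicate 3 (0.0025) or vector replicate 1 (0.085). The methylation difference at the Phgdh start turned above 0 with 500 bp on either side (0.028 points) or as the mean of cytosine levels (0.062 points). The Psat1 one ranged from -0.11 to 0.32 points, negative without SHMT2 replicate 1. The H3K4me1 length differences were 3834.5 bp at Phgdh and 0.0 bp at Psat1 with a −log10 q of at least 10, and 333.5 bp at Psph within 1 kb. The causes were not tested.

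Deviations from the group means were correlated between SHMT2 and vector libraries, for ERRBS at cytosines averaging 5 to 95%. Those of same-numbered libraries correlated at -0.42, -0.33 and -0.058 in RNA-seq and -0.048, -0.23 and -0.064 in ERRBS. Centring each group makes some such correlations negative, so they cannot settle whether replicate numbers pair the samples. No library correlated best with its own number. With the replicate block, the values of Phgdh, Psat1 and Psph were 0.47, 0.78 and 0.55 (limma adjusted p = 0.464 each) and 0 genes were called. Peak lengths were given with no test, so no block was fitted to them. Unknown RNA-seq depth, 3 or fewer libraries a group and uncovered 3′ ends limit what can be called here.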

Other observations

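Methylated calls at the Psat1 start in SHMT2 replicate 1 were not at 1 site. Of the 33 cytosines there, 18 held at least 1 methylated call in that library, against 4 and 0 in the other SHMT2 libraries and 3, 8 and 2 in vector replicates 1, 2 and 3. Neighbouring cytosines can be read on the same DNA molecule, which calls given per cytosine do not show. The 18 are therefore not separate observations, and a few molecules could account for many of them. The calls numbered 26 of 3022 in SHMT2 replicate 1 and 14 of 3308 in vector replicate 2, the next highest library. RNA-seq and ERRBS libraries with the same number are not known to share cells, so this library was not matched to a Psat1 level.

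A small H3K4me1 peak just upstream of Phgdh, at chr3:98340166-98340520, was listed in 2 of 2 SHMT2 libraries and 0 of 2 vector libraries. It covered 298 and 317 bp in SHMT2 libraries, with the authors' fold enrichment at 3.02 and 3.15. In these lists, 81.8 and 61.9% of the peaks had a higher fold enrichment. The 2 SHMT2 lists hold more peaks than the vector lists. The share of all regions with this pattern was not counted, and no test was made on this peak.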
